A study of Saccharomyces cerevisiae with 44 samples.

Results

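The genes described here are 10 members of the phosphate starvation response of budding yeast, Saccharomyces cerevisiae: PHO5 (YBR093C), PHO3 (YBR092C), PHO11 (YAR071W), PHO12 (YHR215W), PHO84 (YML123C), PHO89 (YBR296C), SPL2 (YHR136C), PHO8 (YDR481C), VTC3 (YPL019C) and PHM6 (YDR281C). They were picked by their systematic identifiers out of the 7127 features of the count table. All 10 passed the filter on low counts in every fit. Most of their products release, carry or store phosphate. PHO5, PHO11, PHO12 and PHO3 encode acid phosphatases outside the plasma membrane, and PHO8 encodes the alkaline phosphatase of the vacuole. PHO84 and PHO89 encode high-affinity phosphate transporters of the plasma membrane. SPL2 encodes a small protein that lowers the activity of the low-affinity transporters, VTC3 a subunit of the complex that makes polyphosphate at the vacuole, and PHM6 a protein of unknown function.

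When phosphate runs short, the cyclin-dependent kinase inhibitor Pho81 blocks the kinase pair Pho80 and Pho85, the transcription factor Pho4 stays in the nucleus, and Pho4 acts with Pho2 on the promoters of this regulon. Pho4 is known to bind the letters CACGTG and, more weakly, CACGTT. PHO3 stands apart in textbook accounts, since it is known as the constitutive acid phosphatase and as a gene repressed by thiamine rather than by phosphate. The perturbation studied here was a different signal: the mating pheromone alpha-factor, which acts in MATa cells through a kinase cascade on the transcription factor Ste12, known to bind TGAAACA. Kar4 is a factor that works with Ste12 on a later set of mating genes, and Ime4 is the catalytic subunit of the mRNA methyltransferase that makes N6-methyladenosine.

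The cells compared were kar4Δ (kar4::KanMX), ste12Δ (ste12::KanMX), ime4Δ (ime4::KanMX) and their parent VM05, called WT. All strains, WT included, were MATa and carried mutant alleles of ade1, his2, trp1, ura3, leu2, bar1 and all 3 G1 cyclin genes (cln1, cln2 and cln3), with CLN3 supplied from a galactose promoter by leu2:LEU2::GAL-CLN3. Cultures grown in galactose at 30 °C were moved to glucose for 3 h to arrest them, and either treated with 20 µM alpha-factor for 60 min or collected without it. Batches 1 and 2 held kar4Δ, ste12Δ and WT with 4 libraries each after alpha-factor and 4 each at 0 h, replicates 1 and 2 being batch 1 and replicates 3 and 4 batch 2. Batch 3 held ime4Δ and WT, and batch 4 held WT alone, whose untreated control was kept for a further 60 min before it was collected. The labels do not say whether replicates were separate cultures, so the p-values below measure only the spread between these libraries. In bulk RNA of this kind, fewer cells expressing a gene and less RNA per cell cannot be told apart.

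A search of the 500 bases upstream of each start codon, on both strands of the R64 RefSeq assembly, found CACGTG in 8 of the 10 genes and in 6.23% of the 6000 genes searched. CACGTT was found in 8 of the 10 and in 16% of all genes, and either form in 9 of the 10 and in 21%. The genes were picked as members of a regulon of Pho4, so their high share of these letters can follow from that choice. PHO11 and PHO12 hold them in near-identical stretches and count as less than 2 separate genes. TGAAACA was found in 1 of the 10, PHO3, and in 12% of all genes. PHO3 had neither of the Pho4 forms, and PHO8 had CACGTT alone. SPL2 had 4 copies of CACGTG, and PHO84 and VTC3 had 2 copies beside 1 of CACGTT. A match is a run of letters and says nothing of binding, and a missing match says only that the letters are not in this window. The stretches that hold these letters are shown for the genes whose responses differ most in the sections that follow, on the strand of the gene and 5′ to 3′. Capitals mark the matches, and AACGTG and TGTTTCA are CACGTT and TGAAACA read from the opposite strand. The PHO5 stretch (chrII:431182-431331, minus strand) holds CACGTT at its start and CACGTG near its end:
PHO5: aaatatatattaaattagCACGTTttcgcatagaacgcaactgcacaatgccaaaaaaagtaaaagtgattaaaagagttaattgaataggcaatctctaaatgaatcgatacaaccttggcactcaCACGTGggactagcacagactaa
The PHO84 stretch (chrXIII:26041-26250, minus strand) holds both copies of CACGTG in its first part and the reversed CACGTT near its end:
PHO84: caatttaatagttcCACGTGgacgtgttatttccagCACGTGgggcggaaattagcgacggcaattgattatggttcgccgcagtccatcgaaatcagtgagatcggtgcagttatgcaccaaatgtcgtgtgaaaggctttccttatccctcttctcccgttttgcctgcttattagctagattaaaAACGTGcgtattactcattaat
The SPL2 stretch (chrVIII:375181-375260, minus strand) holds 2 of the 4 copies of that gene:
SPL2: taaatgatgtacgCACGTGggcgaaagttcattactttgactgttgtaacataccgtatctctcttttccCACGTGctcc
PHO89 (chrII:798823-799002, minus strand) carries both forms and is the member that rose in kar4Δ and WT:
PHO89: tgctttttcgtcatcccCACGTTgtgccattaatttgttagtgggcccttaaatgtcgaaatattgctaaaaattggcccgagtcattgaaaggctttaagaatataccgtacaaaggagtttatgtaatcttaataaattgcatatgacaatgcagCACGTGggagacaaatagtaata
PHM6 (chrIV:1022582-1022771, minus strand) also carries both forms, with the reversed CACGTT first:
PHM6: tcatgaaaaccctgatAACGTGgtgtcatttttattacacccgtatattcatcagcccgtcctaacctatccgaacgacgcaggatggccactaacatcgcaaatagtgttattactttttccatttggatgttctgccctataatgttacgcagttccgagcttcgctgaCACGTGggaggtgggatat
PHO3 (chrII:429412-429451, minus strand) carries the Ste12 letters alone, 337 bases before its start codon:
PHO3: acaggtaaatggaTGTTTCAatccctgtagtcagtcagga

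**Figure D1:**
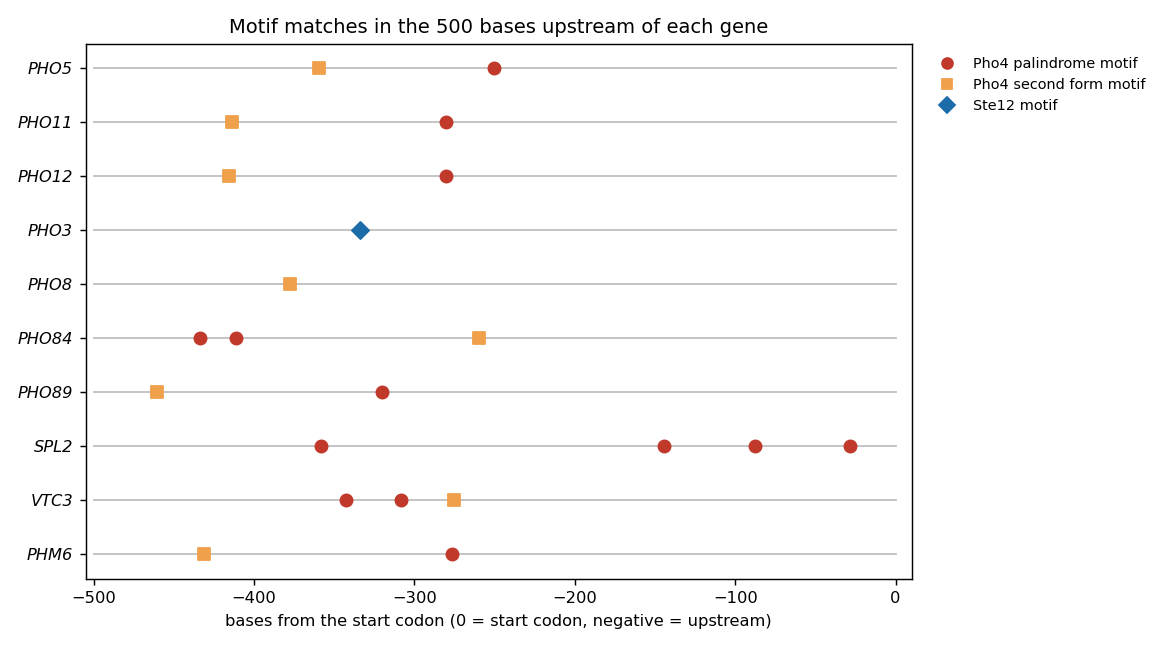
Positions of motif matches in the 500 bases upstream of the 10 genes (horizontal axis: bases from the start codon; one line per gene). Red circles are CACGTG, orange squares CACGTT and blue diamonds TGAAACA, on either strand; 9 of the 10 genes hold at least 1 Pho4 form and PHO3 holds the Ste12 form alone.

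RNA was sequenced as stranded total RNA with 50-nt reads, and the deposited values are estimated counts per gene. The libraries held 4250000 to 15630000 counts (totals rounded to 10000) in batch 1, 8270000 to 12670000 in batch 2, 9900000 to 17020000 in batch 3 and 14820000 to 22590000 in batch 4. The 16 columns of batch 3 formed 8 pairs that differed by less than the sampling noise, so each pair was averaged and counted as 1 library, leaving 36 libraries. Levels are given below as CPM (a gene's counts per 1000000 counts of its library, the library total being multiplied by its TMM factor); the factors were computed separately for batches 1 and 2 together, for batch 3 and for batch 4. The deleted genes went with the labels. KAR4 had 0 to 0.283 CPM in the kar4Δ libraries and at least 17.2 CPM in all others. STE12 had 0.266 to 6.24 CPM in ste12Δ and at least 172 CPM elsewhere. IME4 had 0.317 to 0.566 CPM in ime4Δ, against 251 and 263 CPM in treated WT of the same batch. Low IME4 was not particular to ime4Δ: it had 0.0778 to 0.347 CPM in ste12Δ and 0.351 to 5.66 CPM in kar4Δ. The lowest WT library had 0.938 CPM. Each deletion strain thus had next to no reads of its own deleted gene. BAR1 stayed at or under 0.333 CPM in every library, but CLN1 (71.3 to 231 CPM) and CLN2 (123 to 277 CPM) had reads throughout although the genotype lists them as mutant. The MATa-specific genes MFA1, MFA2, STE2, STE6 and ASG7 summed to 492 to 828 CPM in ste12Δ and to 2467 to 5333 CPM in the other strains. The 4 alpha-specific genes searched summed to 3232 to 3569 CPM in treated kar4Δ, against 497 to 684 CPM in kar4Δ at 0 h and 85.8 to 399 CPM in the other groups. SAG1 made up most of that sum, with 2928 to 3202 CPM in treated kar4Δ, while STE3 had 10.3 to 16.3 CPM there.

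After alpha-factor most of the set was lower. In batches 1 to 3 the untreated libraries were collected when the pheromone was added to the rest of the culture, so the pheromone and the further 60 min in glucose cannot be told apart in those responses; the control of batch 4 alone was kept for the same time. In WT of batches 1 and 2, PHO5, PHO3, PHO11, PHO12, PHO84, SPL2, VTC3 and PHO8 fell and PHO89 rose, while PHM6 did not pass the test (adjusted p under 0.05 by edgeR's quasi-likelihood test, adjusted over all features). Thus 9 of the 10 were called, 8 lower and 1 higher, beside 59% of the 6161 features tested (29% higher and 30% lower). The median log2 fold change of the 10 genes was -1.60, against -0.0017 over all features. In kar4Δ all 10 were called, 9 lower and 1 higher, beside 65.9% of features (33% higher and 32.8% lower), with a median of -2.36. In ste12Δ 8 were lower and none higher, beside 32.2% of features (17.6% higher and 14.6% lower), with a median of -0.96; PHO84 and PHO89 were the pair that did not pass there.

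The same test in batch 3 called all 10 genes in ime4Δ (8 lower and 2 higher, beside 55.5% of features, 27.6% higher and 27.9% lower). In WT of batch 3 it called 9 (7 lower and 2 higher, beside 55.1%, 27.4% higher and 27.7% lower). In WT of batch 4 it called 8 (7 lower and 1 higher, beside 57.8%, 28.9% higher and 28.9% lower). Their medians were -1.93, -1.99 and -1.31. PHO5, PHO3, PHO11, PHO12, SPL2 and VTC3 were called lower in all 6 responses, whereas PHO89 was higher in the 5 responses other than that of ste12Δ and PHO84 was lower in the same 5. PHM6 was the 1 gene called in opposite directions, lower in kar4Δ and ste12Δ and higher in batch 3.

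The scaling moved the background: the TMM factors of treated WT (0.836 to 0.946) and treated kar4Δ (0.789 to 0.930) lay below those at 0 h. With library totals as the only scaling, the median of all features moved to -0.17 in the WT response, and the called features split into 1183 higher and 2523 lower, against 1788 and 1849 with TMM. In the kar4Δ response the median moved to -0.23 and the split to 1329 higher and 2938 lower, against 2036 and 2022. In batch 3 the splits became 948 and 2929 for ime4Δ, against 1697 and 1718, and 1125 and 2207 for WT, against 1687 and 1704; in batch 4 the split became 1387 and 2369, against 1810 and 1813. None of the called members changed direction under it.

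**Figure D2:**
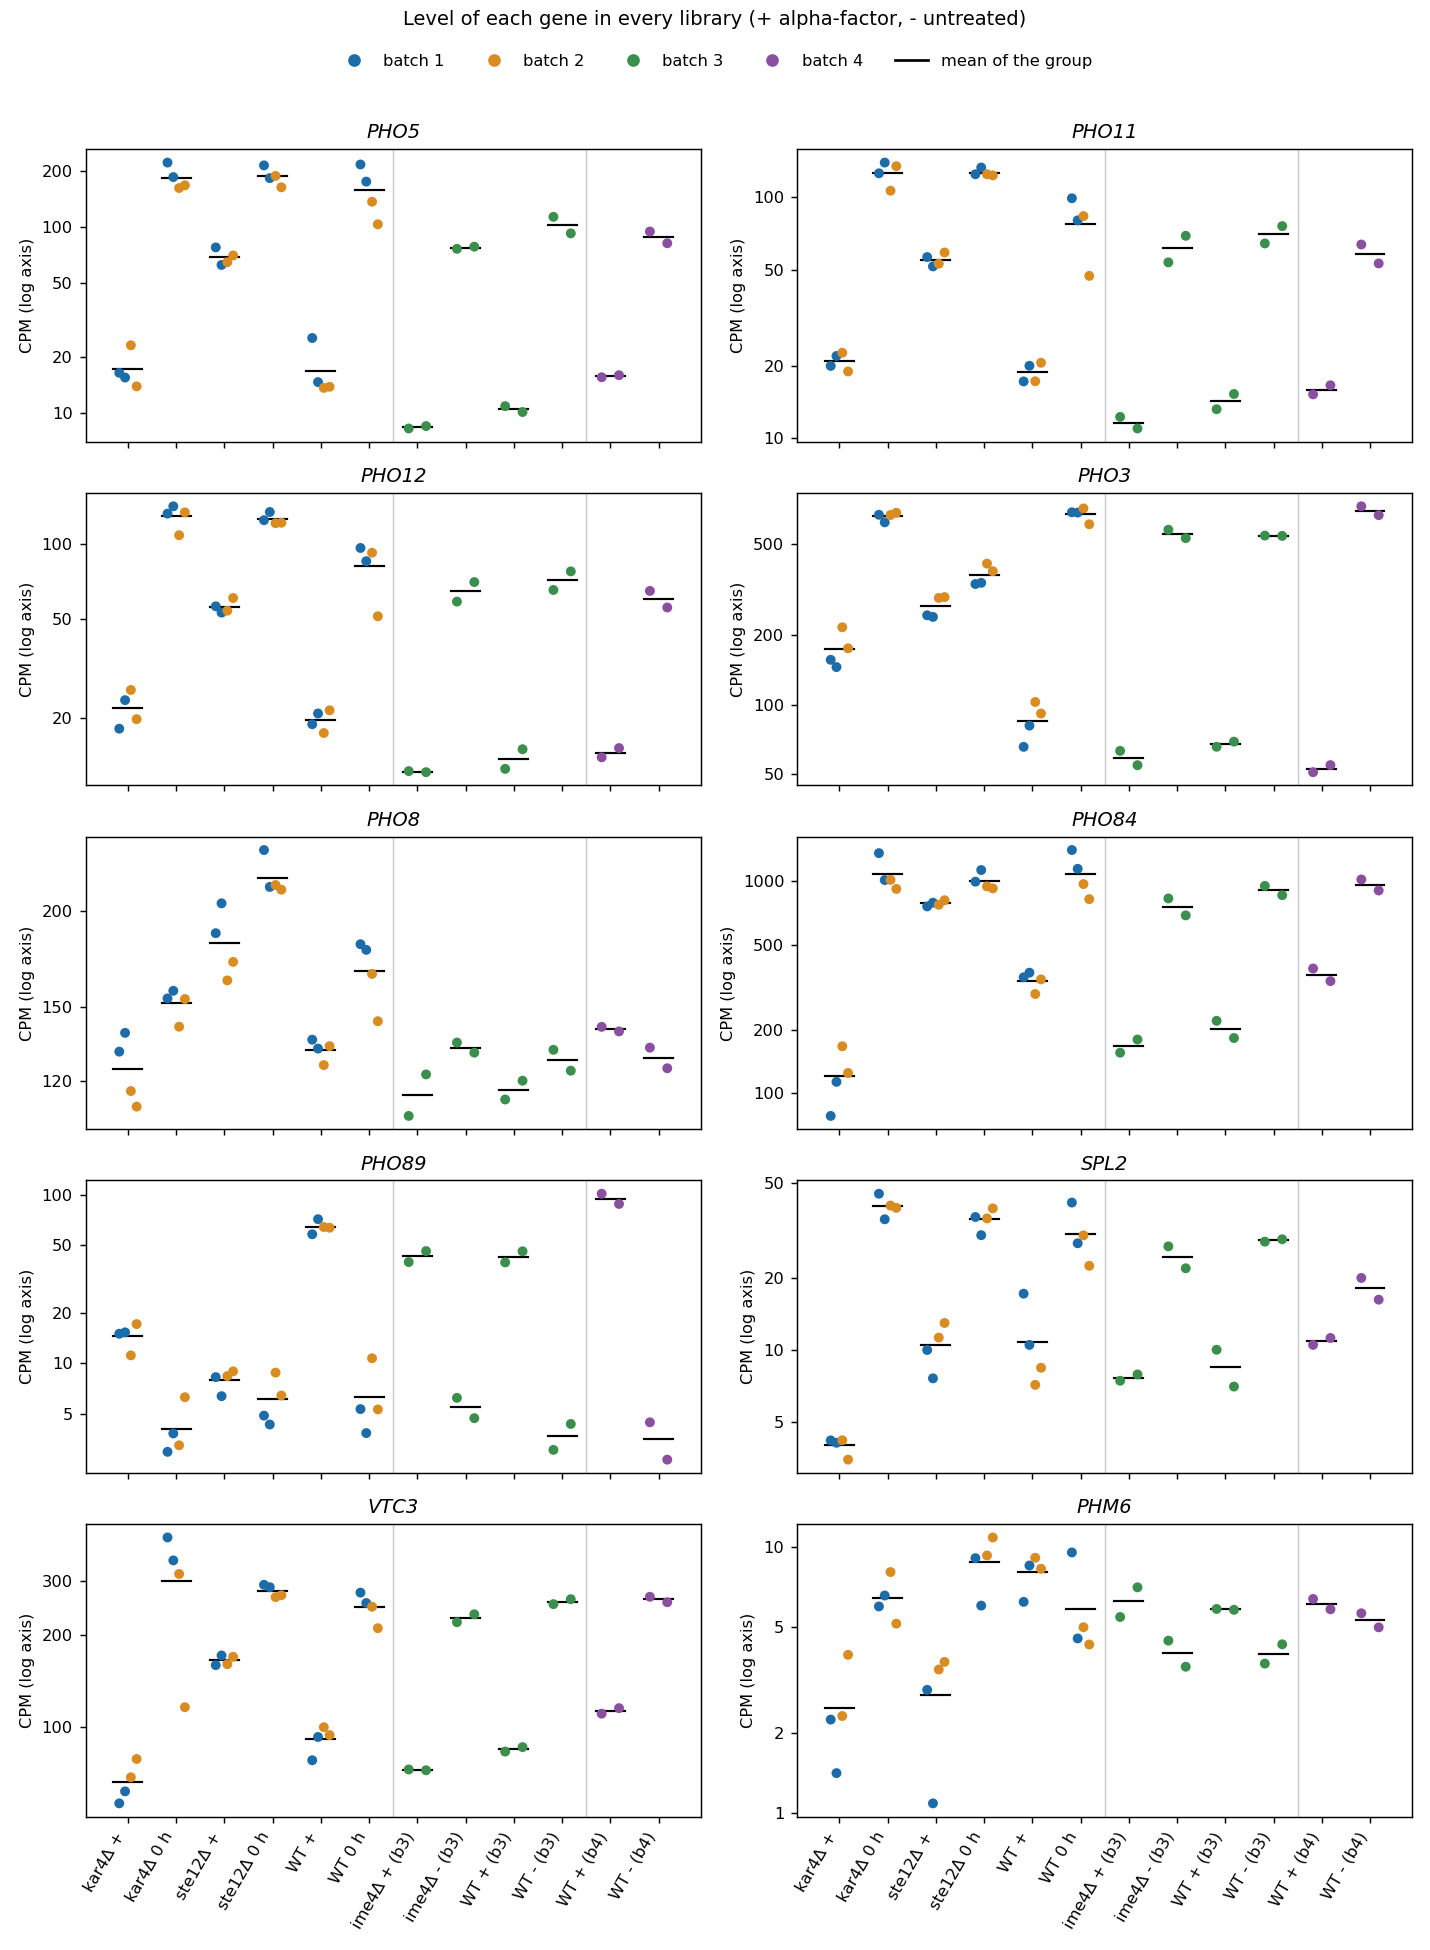
Level of each gene in every library (vertical axis: CPM after TMM scaling, log axis; horizontal axis: strain with + for alpha-factor and - or 0 h for untreated, batches 3 and 4 marked b3 and b4). Points are libraries coloured by batch and bars are group means; treated PHO84 in batches 1 and 2 spans 78.3 to 167 CPM in kar4Δ, 762 to 815 CPM in ste12Δ and 294 to 371 CPM in WT.

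The acid phosphatase PHO5 (chrII:429548-430951, minus strand), the main secreted phosphatase of starved cells, fell in every strain, and less in ste12Δ than in WT. In kar4Δ it had 16.5, 15.6, 23.2 and 13.96 CPM after alpha-factor, against 222, 185, 162 and 167 CPM at 0 h (replicates 1 to 4, an order kept throughout). The ste12Δ libraries had 77.7, 62.6, 64.7 and 70.3 CPM after alpha-factor, against 214, 183, 188 and 163 CPM at 0 h. The WT libraries had 25.4, 14.7, 13.7 and 13.9 CPM after alpha-factor, against 216, 175, 137 and 103 CPM at 0 h. Within each strain every treated library lay below every 0 h library, and the 4 treated ste12Δ libraries lay above all treated kar4Δ and WT libraries. Here and for the members that follow, overlap was not counted over all features, so how common such separation is was not measured. At 0 h the ranges of the 3 strains overlapped. The log2 fold change was -3.40 (SE 0.18, adjusted p = 1.03e-13) in kar4Δ, -1.44 (SE 0.16, adjusted p = 5.72e-07) in ste12Δ and -3.24 (SE 0.18, adjusted p = 3.95e-13) in WT, the last being 9.42-fold lower. The response of ste12Δ differed from that of WT by 1.80 (SE 0.24, adjusted p = 2.59e-06) and was smaller in both batches (1.82 in batch 1 and 1.74 in batch 2). That of kar4Δ differed by -0.16 (SE 0.25, adjusted p = 0.727) and did not pass. After alpha-factor PHO5 was 4.21-fold higher in ste12Δ than in WT, a log2 difference of 2.07 (SE 0.18, adjusted p = 1.15e-09).

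PHO11 (chrI:225460-226863, plus strand) and PHO12 (chrVIII:552099-553502, plus strand) encode near-identical secreted acid phosphatases at different chromosome ends. Their coding sequences differ at 4 of 1404 bases, and 87.2% of the 50-base windows of PHO12 occur unchanged in PHO11, so counting can move reads between them and their values are not independent. PHO11 had 19.9, 21.9, 22.6 and 18.9 CPM in treated kar4Δ, against 125, 139, 106 and 134 CPM at 0 h. In ste12Δ the values were 56.4, 51.6, 52.9 and 58.9 CPM after alpha-factor, against 124, 133, 124 and 123 CPM at 0 h. In WT they were 17.2, 19.97, 17.2 and 20.6 CPM after alpha-factor, against 98.9, 80.1, 83.4 and 47.1 CPM at 0 h. Treated libraries lay below 0 h libraries in each strain, and WT replicate 4 was the lowest 0 h library. The fold changes were -2.60 (SE 0.14, adjusted p = 1.97e-13) in kar4Δ, -1.20 (SE 0.13, adjusted p = 4.78e-07) in ste12Δ and -2.02 (SE 0.15, adjusted p = 4.89e-11) in WT. PHO12 gave -2.56, -1.16 and -2.03 in the same order, with treated levels of 18.1 to 25.96 CPM in kar4Δ, 53.1 to 60.8 CPM in ste12Δ and 17.4 to 21.5 CPM in WT.

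This pair was the part of the set that was higher in both deletion strains before any pheromone. At 0 h PHO11 differed from WT by 0.73 (SE 0.13, adjusted p = 0.00135) in kar4Δ and by 0.73 (SE 0.13, adjusted p = 0.00025) in ste12Δ, and PHO12 by 0.68 (SE 0.13, adjusted p = 0.00252) and 0.64 (SE 0.13, adjusted p = 0.00104). Every kar4Δ and ste12Δ library at 0 h lay above every WT library at 0 h for both genes, which share reads. Within batches the 0 h differences of PHO11 were 0.57 in batch 1 and 0.88 in batch 2 for kar4Δ and 0.51 in batch 1 and 0.92 in batch 2 for ste12Δ, and the kar4Δ difference of PHO12 missed the threshold in batch 2 alone (0.76, adjusted p = 0.0637). After alpha-factor kar4Δ and WT overlapped for both genes (PHO11 0.15, adjusted p = 0.502), whereas every ste12Δ library lay above every WT library (PHO11 1.54, SE 0.15, adjusted p = 4.57e-09). The response of PHO11 differed from WT by 0.82 (SE 0.19, adjusted p = 0.00197) in ste12Δ, and by 0.65 in batch 2 alone, where it did not pass (adjusted p = 0.118), as PHO12 did not there (0.81, adjusted p = 0.0669). Its difference in kar4Δ, -0.58 (SE 0.21, adjusted p = 0.0492), was not called once any 1 of 10 of the 16 kar4Δ and WT libraries was left out, with values of -0.60 to -0.51 in those fits, nor within either batch (-0.41 in batch 1 and -0.74 in batch 2), nor with RLE factors (-0.56). The replicate block (-0.59, adjusted p = 0.063), no batch term (-0.57, adjusted p = 0.0843) and the groups alone (-0.59, adjusted p = 0.0822) ended that call as well.

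PHO3 (chrII:427698-429101, minus strand) lies next to PHO5, and their coding sequences are 86.5% identical. It fell in each strain after alpha-factor, and its treated level separated all 3 strains. In kar4Δ it had 157, 146, 217 and 176 CPM after alpha-factor, against 668, 619, 666 and 681 CPM at 0 h. For ste12Δ the values were 245, 241, 291 and 294 CPM after alpha-factor, against 334, 338, 410.1 and 380.1 CPM at 0 h. For WT the values were 65.8, 81.3, 103 and 91.8 CPM after alpha-factor, against 685, 682, 711 and 607 CPM at 0 h. The treated ranges of the 3 strains did not overlap, with ste12Δ highest and WT lowest, and the 0 h libraries of ste12Δ lay below those of both other strains. After alpha-factor the gene was 3.81-fold lower in kar4Δ, 1.37-fold lower in ste12Δ and 7.90-fold lower in WT. On the log2 scale these changes were -1.93 (SE 0.092, adjusted p = 1.41e-14), -0.45 (SE 0.089, adjusted p = 0.000537) and -2.98 (SE 0.097, adjusted p = 1.54e-17). The kar4Δ response was smaller than that of WT by 1.05 (SE 0.13, adjusted p = 1.86e-06), and the ste12Δ response by 2.53 (SE 0.13, adjusted p = 3.18e-13). Both differences were present within each batch, at 1.12 in batch 1 and 0.99 in batch 2 for kar4Δ and 2.73 in batch 1 and 2.33 in batch 2 for ste12Δ. At 0 h ste12Δ was lower than WT, with a log2 difference of -0.89 (SE 0.089, adjusted p = 8.03e-08). The strain with the lowest 0 h level, ste12Δ, thus had the highest treated level.

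PHO8 (chrIV:1418550-1420250, minus strand), the vacuolar phosphatase, moved least among the members called in the 3 responses of batches 1 and 2. It had 131, 139, 116 and 111 CPM in treated kar4Δ, against 154, 157, 141 and 154 CPM at 0 h. In ste12Δ it had 187, 205, 162 and 172 CPM after alpha-factor, against 240.2, 215, 216 and 213 CPM at 0 h. In WT it had 136, 132, 126 and 133 CPM after alpha-factor, against 181, 178, 166 and 144 CPM at 0 h. The ranges did not overlap within any strain, although the step was small, and the ste12Δ libraries lay above the WT libraries both treated and at 0 h. The fold changes were -0.29 (SE 0.060, adjusted p = 0.000196) in kar4Δ, -0.29 (SE 0.059, adjusted p = 0.000805) in ste12Δ and -0.34 (SE 0.061, adjusted p = 4.99e-05) in WT. Neither response difference passed (0.046, SE 0.086, adjusted p = 0.772 for kar4Δ and 0.047, SE 0.084, adjusted p = 0.697 for ste12Δ). ste12Δ exceeded WT by 0.41 (SE 0.060, adjusted p = 2.37e-05) at 0 h and by 0.46 (SE 0.060, adjusted p = 8.16e-07) after alpha-factor. These small values shift with the scaling: with library totals the kar4Δ response was -0.52, the WT response -0.51 and the treated ste12Δ difference 0.79. In batch 1 alone the ste12Δ response was -0.23 and missed the threshold (adjusted p = 0.0511).

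PHO84 (chrXIII:24037-25800, minus strand), the proton-coupled high-affinity transporter, fell far in kar4Δ, less in WT, and did not pass the test in ste12Δ. In kar4Δ it had 78.3, 113, 167 and 125 CPM after alpha-factor, against 1359.6, 1015, 1017 and 922 CPM at 0 h. The ste12Δ libraries had 762, 794, 776 and 815 CPM after alpha-factor, against 997, 1132, 948 and 927 CPM at 0 h. The WT libraries had 353, 371, 294 and 345 CPM after alpha-factor, against 1407, 1147, 972 and 825 CPM at 0 h. The treated ranges of the 3 strains did not overlap, running from kar4Δ at the bottom through WT to ste12Δ at the top, while all 0 h ranges overlapped. The log2 fold change was -3.14 (SE 0.18, adjusted p = 3.35e-13) in kar4Δ, 8.83-fold lower, and -1.67 (SE 0.17, adjusted p = 1.17e-08) in WT, 3.18-fold lower. In ste12Δ it was -0.34 (SE 0.16, adjusted p = 0.108), although all 4 treated libraries lay below all 4 libraries at 0 h, and with the ste12Δ libraries fitted alone it was -0.35 and was called (adjusted p = 0.00502). The difference from WT was -1.47 (SE 0.23, adjusted p = 6.32e-05) in kar4Δ and 1.32 (SE 0.23, adjusted p = 9.81e-05) in ste12Δ. Batch 1 gave a larger kar4Δ difference than batch 2, with -1.81 in batch 1 and -1.24 in batch 2. At 0 h neither strain differed from WT beyond the test (-0.0082 in kar4Δ, adjusted p = 0.985, and -0.11 in ste12Δ, adjusted p = 0.648).

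PHO89 (chrII:796798-798522, minus strand), the sodium-coupled high-affinity transporter, was the member that rose in kar4Δ and in WT. Its 0 h level was low, and it reached different treated levels in the 3 strains. In kar4Δ it had 15, 15.3, 11.2 and 17.1 CPM after alpha-factor, against 2.996, 3.85, 3.27 and 6.31 CPM at 0 h. For ste12Δ the values were 8.30, 6.40, 8.42 and 8.98 CPM after alpha-factor, against 4.91, 4.35, 8.83 and 6.46 CPM at 0 h. For WT the values were 58.3, 71.6, 64.3 and 63.7 CPM after alpha-factor, against 5.36, 3.87, 10.7 and 5.34 CPM at 0 h. Treated WT lay above treated kar4Δ and treated kar4Δ above treated ste12Δ without overlap, and treated and 0 h libraries overlapped in ste12Δ alone. The 0 h libraries of the 3 strains held 18 to 126 counts of this gene, so their spread is wide. PHO89 was 3.53-fold higher in kar4Δ (log2 1.82, SE 0.24, adjusted p = 4.41e-07) and 9.99-fold higher in WT (log2 3.32, SE 0.21, adjusted p = 2.4e-12), while in ste12Δ the value was 0.37 (SE 0.22, adjusted p = 0.192). The responses differed from WT by -1.50 (SE 0.33, adjusted p = 0.00192) in kar4Δ and -2.95 (SE 0.30, adjusted p = 6.63e-08) in ste12Δ. Within batches the kar4Δ difference was -1.77 in batch 1 and -1.42 in batch 2, and the batch 2 value did not pass alone (adjusted p = 0.0585). For ste12Δ it was -3.21 in batch 1 and -2.83 in batch 2.

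SPL2 (chrVIII:374654-375100, minus strand) fell in all strains, and further in kar4Δ than in WT. It had 4.20, 4.10, 4.21 and 3.49 CPM in treated kar4Δ, against 44.9, 35.1, 40.1 and 39.2 CPM at 0 h. In ste12Δ it had 10.01, 7.62, 11.3 and 12.98 CPM after alpha-factor, against 35.9, 30.2, 35.4 and 39.04 CPM at 0 h. In WT it had 17.2, 10.5, 7.16 and 8.44 CPM after alpha-factor, against 41.3, 27.9, 30.1 and 22.5 CPM at 0 h. Treated kar4Δ lay below every other library, treated ste12Δ and treated WT overlapped, and the 0 h ranges overlapped. The log2 fold change was -3.31 (SE 0.23, adjusted p = 9.38e-12) in kar4Δ, -1.76 (SE 0.18, adjusted p = 2.49e-07) in ste12Δ and -1.54 (SE 0.20, adjusted p = 8.88e-07) in WT. The kar4Δ response differed from that of WT by -1.78 (SE 0.32, adjusted p = 0.000272), with -1.89 in batch 1 and -1.61 in batch 2. The ste12Δ difference was -0.23 (SE 0.28, adjusted p = 0.552) and did not pass. In its response, SPL2 was thus a member for which the loss of KAR4 and not of STE12 gave a called difference. The responses of the deletion strains were not tested against each other. Treated ste12Δ differed from treated WT by 0.016, with -0.63 in batch 1 alone and 0.64 in batch 2 alone, where it was called (adjusted p = 0.0105).

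VTC3 (chrXVI:514511-517018, minus strand), whose complex makes and stores polyphosphate, fell in each strain. In kar4Δ it had 56.2, 61.6, 68.4 and 78.6 CPM after alpha-factor, against 417, 351, 317 and 116 CPM at 0 h. The ste12Δ libraries had 159, 171, 161 and 169.8 CPM after alpha-factor, against 292, 287, 266 and 270.0 CPM at 0 h. The WT libraries had 77.8, 92.7, 99.8 and 94.1 CPM after alpha-factor, against 275, 255, 248 and 211 CPM at 0 h. Treated and 0 h libraries did not overlap in any strain, treated ste12Δ lay above treated WT, and kar4Δ replicate 4 at 0 h stood well under its group. The fold changes were -2.16 (SE 0.22, adjusted p = 9.02e-09) in kar4Δ, -0.75 (SE 0.21, adjusted p = 0.00813) in ste12Δ and -1.42 (SE 0.22, adjusted p = 5.5e-06) in WT. Neither response difference passed (-0.73, SE 0.30, adjusted p = 0.0981 for kar4Δ and 0.67, SE 0.30, adjusted p = 0.081 for ste12Δ). Without kar4Δ replicate 4 at 0 h, the kar4Δ difference became -1.01 and was called, and kar4Δ exceeded WT at 0 h by 0.55, also called. The ste12Δ difference was called with library totals (0.81, adjusted p = 0.0293), in batch 1 alone (0.81, adjusted p = 0.00199) and with the groups compared alone (0.68, adjusted p = 0.000242). After alpha-factor ste12Δ was higher than WT by 0.85 (SE 0.21, adjusted p = 0.00155). In batch 2 alone this difference (0.76, adjusted p = 0.0519) and the ste12Δ response (-0.70, adjusted p = 0.113) missed the threshold.

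PHM6 (chrIV:1022007-1022321, minus strand) had low counts, 10 to 140 of them, in the libraries of batches 1 and 2. It had 2.25, 1.42, 2.32 and 3.94 CPM in treated kar4Δ, against 5.99, 6.59, 8.07 and 5.16 CPM at 0 h. For ste12Δ the values were 2.91, 1.09, 3.47 and 3.71 CPM after alpha-factor, against 9.10, 6.04, 9.32 and 10.9 CPM at 0 h. For WT the values were 6.23, 8.54, 9.13 and 8.30 CPM after alpha-factor, against 9.56, 4.54, 5.004 and 4.31 CPM at 0 h. Treated and 0 h libraries did not overlap in the deletion strains, and in WT they overlapped through replicate 1, the highest 0 h library. PHM6 fell in kar4Δ (-1.36, SE 0.31, adjusted p = 0.000544) and in ste12Δ (-1.71, SE 0.26, adjusted p = 3.63e-05), and its value in WT was 0.60 (SE 0.27, adjusted p = 0.0666). Without WT replicate 1 at 0 h the WT value was 0.90 and was called. The responses differed from WT by -1.96 (SE 0.42, adjusted p = 0.00137) in kar4Δ and by -2.30 (SE 0.38, adjusted p = 4.84e-05) in ste12Δ; the kar4Δ difference in batch 1 alone, -1.95, missed the threshold (adjusted p = 0.0757). Every treated WT library lay above every treated library of the deletion strains, with differences of -1.68 (SE 0.31, adjusted p = 0.00016) for kar4Δ and -1.59 (SE 0.28, adjusted p = 4.05e-05) for ste12Δ relative to WT. The 0 h difference of ste12Δ, 0.71 (SE 0.26, adjusted p = 0.0478), was 0.15 in batch 1 and 1.10 in batch 2. It lost its call when any of 6 libraries was left out, with values of 0.53 to 0.72 in those fits, and by DESeq2 (0.61). The call was also lost in batch 1 alone and with RLE factors (0.69, adjusted p = 0.0554). No batch term (0.67, adjusted p = 0.134) and the groups compared alone (0.70, adjusted p = 0.0875) ended it as well.

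Set against WT at each time, more members, and also a larger share of all features, were called after alpha-factor than at 0 h in both strains. At 0 h kar4Δ differed in 2 of the 10 genes, both higher (PHO11 and PHO12), beside 12% of features (5.84% higher and 6.12% lower). ste12Δ differed in 5, 4 higher (PHO11, PHO12, PHO8 and PHM6) and 1 lower (PHO3), beside 22.5% (10.6% higher and 11.9% lower). PHO11 and PHO12 share reads and count as less than 2 separate genes in the counts of members. No excess over the shares of all features was tested. Library totals turned the ste12Δ background at 0 h to 2366 higher and 296 lower features, against 656 and 733 with TMM. After alpha-factor kar4Δ differed in 5: PHO3 was higher, and PHO84, PHO89, SPL2 and PHM6 were lower, beside 37.9% (16.8% higher and 21.1% lower). PHO84 was 2.80-fold lower, PHO89 4.40-fold lower and SPL2 2.57-fold lower in treated kar4Δ than in treated WT. ste12Δ differed in 9: PHO5, PHO11, PHO12, PHO3, PHO84, VTC3 and PHO8 were higher and PHO89 and PHM6 lower, beside 59.1% (30.9% higher and 28.2% lower). There the split with library totals was 3650 higher and 774 lower, against 1906 and 1735, and for treated kar4Δ it was 705 and 1496, against 1033 and 1299. Beside these differences, the summed alpha-specific genes had 3232 to 3569 CPM in treated kar4Δ, 100.3 to 125 CPM in treated ste12Δ and 169 to 252 CPM in treated WT. The summed MATa-specific genes had 3843 to 4759 CPM, 492 to 716 CPM and 3517 to 5333 CPM in the same strains, and the part of either list in the differences was not tested.

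The test of the difference between responses called 6 of the 10 genes for kar4Δ, 1 above WT (PHO3) and 5 below it (PHO11, PHO84, PHO89, SPL2 and PHM6), beside 18.9% of features (8.72% above and 10.2% below). For ste12Δ it called 7, 5 above WT (PHO5, PHO3, PHO11, PHO12 and PHO84) and 2 below it (PHO89 and PHM6), beside 35.9% (18.3% above and 17.6% below). Library totals moved these splits to 334 above and 685 below for kar4Δ, against 537 and 630, and to 1710 above and 663 below for ste12Δ, against 1130 and 1084. Both sets of differences use the same WT libraries, so they are not independent of each other. The kar4Δ call for PHO11 was lost under many of the alternatives, as given with that gene above, and PHO11 and PHO12 share reads. Side by side, PHO84 gave -1.47 in kar4Δ and 1.32 in ste12Δ, on opposite sides of WT. PHO3 gave 1.05 and 2.53, PHO89 -1.50 and -2.95, and PHM6 -1.96 and -2.30, each on the same side in both strains. The medians of the 10 genes were -0.66 for kar4Δ and 0.75 for ste12Δ, against -0.019 and 0.013 over all features.

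**Figure D3:**
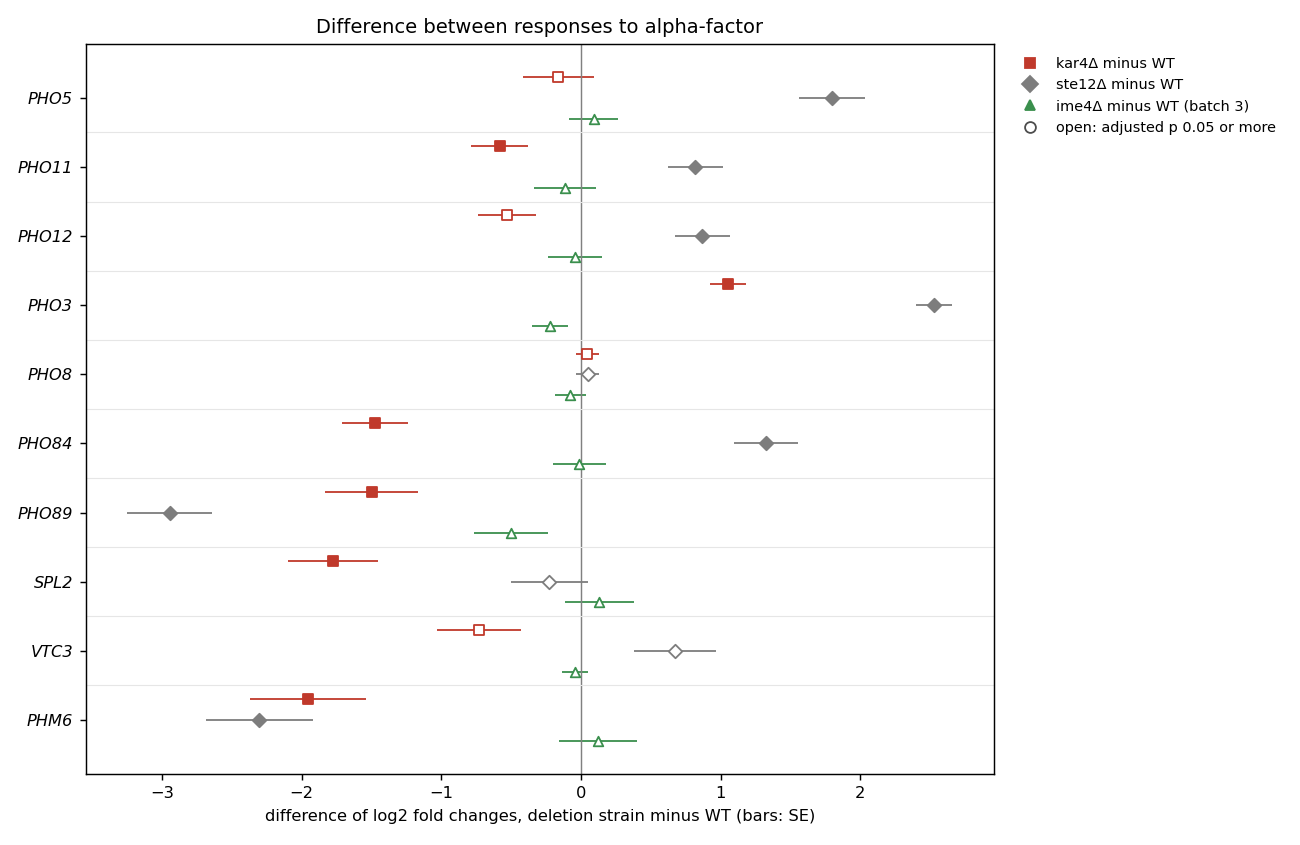
Difference of log2 fold changes between a deletion strain and WT for each gene (horizontal axis; bars: SE; filled symbols: adjusted p under 0.05; red squares kar4Δ, grey diamonds ste12Δ, green triangles ime4Δ). PHO84 lies at -1.47 for kar4Δ and 1.32 for ste12Δ, and all ime4Δ symbols are open.

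Deletion of ime4 gave no called member against WT. In batch 3, treated ime4Δ had 8.30 and 8.55 CPM of PHO5, against 76.3 and 78.4 CPM untreated, and WT had 10.9 and 10.2 CPM treated, against 113 and 92.4 CPM untreated. PHO84 had 156 and 179 CPM in treated ime4Δ, against 831 and 691 CPM untreated, and 220.0 and 182 CPM in treated WT, against 952 and 861 CPM untreated. PHO89 had 39.9 and 46.3 CPM in treated ime4Δ, against 6.25 and 4.74 CPM untreated, and 39.7 and 46.2 CPM in treated WT, against 3.08 and 4.38 CPM untreated. Treated and untreated libraries of these genes did not overlap in either strain, with 2 libraries in each group. Overlap was not counted over all features. The ime4Δ libraries of PHO5 and PHO84 lay below the WT libraries at both times, and those of PHO89 lay above them untreated and among them after alpha-factor. After alpha-factor PHO5 was 9.18-fold lower in ime4Δ and 9.78-fold lower in WT, PHO84 was 4.54-fold and 4.51-fold lower, and PHO89 was 7.94-fold and 11.2-fold higher. No member differed between ime4Δ and WT by edgeR, either untreated (beside 0.0325% of features), after alpha-factor (beside 0.227%) or in its response (beside 0.0162%). At an unadjusted p under 0.05 the counts were 2, 1 and 0 members, and DESeq2 called 0 in each. When the 16 columns were treated as separate libraries, 4 members were called untreated and 4 after alpha-factor, but those columns hold pairs within sampling noise of each other. The response difference of PHO89 was -0.50 (SE 0.26, adjusted p = 0.623), and PHO5 had -0.41 (SE 0.093, adjusted p = 0.264) untreated.

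PHM6 rose in batch 3, with 5.47 and 7.07 CPM in treated ime4Δ, against 4.46 and 3.56 CPM untreated, and 5.86 and 5.82 CPM in treated WT, against 3.65 and 4.32 CPM untreated. The values were 0.65 (SE 0.20, adjusted p = 0.0183) and 0.53 (SE 0.20, adjusted p = 0.0452). The WT call was lost without any 1 of its 4 libraries (0.43 to 0.68) and with library totals (0.39), no filter, summed column pairs, the replicate block or DESeq2 (0.52 to 0.54, adjusted p of 0.0511 to 0.14), and the ime4Δ call by DESeq2 (0.65, adjusted p = 0.0604), with library totals (0.37) and without replicate 2 untreated (0.48) or treated (0.46). PHO8 fell in ime4Δ, with -0.20 (SE 0.077, adjusted p = 0.0481). That call was lost without replicate 1 or 2 untreated or replicate 1 treated (-0.18, -0.23 and -0.12). RLE factors (-0.20) and summed column pairs (-0.21, adjusted p = 0.051) also ended it. The WT value of PHO8, -0.13, did not pass (adjusted p = 0.191).

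Batch 4 set treated WT against a control that waited 60 min, in 2 libraries each. PHO89 had 101 and 88.1 CPM after alpha-factor, against 4.48 and 2.69 CPM in the control, a log2 fold change of 4.74 (SE 0.18, adjusted p = 3.04e-07). PHO3 had 51.1 and 54.8 CPM after alpha-factor, against 727 and 665 CPM, a change of -3.72 (SE 0.082, adjusted p = 3.62e-08). SPL2 had 10.5 and 11.2 CPM after alpha-factor, against 20.01 and 16.2 CPM, a change of -0.73 (SE 0.15, adjusted p = 0.00338). None of these 3 pairs of ranges overlapped, but each range held only 2 libraries, and overlap was not counted over all features. Compared with batches 1 and 2, the WT response differed in 3 members, 2 above and 1 below, beside 16.5% of features (8.84% above and 7.69% below; 495 and 271 with library totals, against 554 and 482). PHO89 rose further in batch 4, by 1.41 (SE 0.34, adjusted p = 0.00473), and this call was lost without control replicate 2 (1.08). PHO3 fell further, with a difference of -0.74 (SE 0.15, adjusted p = 0.000836), and PHO8 differed by 0.45 (SE 0.099, adjusted p = 0.00196), its batch 4 value being 0.12 (adjusted p = 0.108). The batch and the wait of the control cannot be told apart in this comparison.

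The genes that sense phosphate were measured in the same libraries, from a list of 8 chosen with earlier results of these data known. PHO81, the kinase inhibitor at the head of the pathway, had 123, 135, 135 and 139 CPM in treated kar4Δ, against 284, 259, 315 and 293 CPM at 0 h. In ste12Δ it had 219, 220.3, 238 and 233 CPM after alpha-factor, against 269, 272, 313 and 327 CPM at 0 h. In WT it had 539, 555, 567 and 563 CPM after alpha-factor, against 291, 237, 308 and 279 CPM at 0 h. Treated WT lay above all other libraries of these batches and treated kar4Δ below all of them, so the direction of the response differed between strains. It was -1.11 (SE 0.061, adjusted p = 1.92e-13) in kar4Δ, -0.37 (SE 0.060, adjusted p = 6.81e-05) in ste12Δ and 1.00 (SE 0.060, adjusted p = 1.54e-12) in WT, and the differences from WT were -2.11 in kar4Δ and -1.37 in ste12Δ. It also rose in batch 3 (1.04 in ime4Δ and 0.85 in WT) and in batch 4 (1.19). Its 500 upstream bases hold 1 copy of each Pho4 form. PHO4 itself rose in the 3 strains (0.70 in kar4Δ, 0.45 in ste12Δ and 0.34 in WT), although the WT value, 0.17 with library totals, then missed the threshold. In batches 3 and 4 PHO4 did not pass, with 0.016 in ime4Δ (adjusted p = 0.952), 0.45 in WT of batch 3 (adjusted p = 0.0922) and -0.43 in WT of batch 4 (adjusted p = 0.0782), and the batch 4 response lay below that of batches 1 and 2 by -0.78 (SE 0.21, adjusted p = 0.0125). KCS1, an inositol pyrophosphate kinase, fell in all 3 (-0.72, -0.26 and -0.69). PHO92, a reader of N6-methyladenosine, rose in kar4Δ (1.14) and WT (0.97) and had 0.19 in ste12Δ (adjusted p = 0.566).

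Beside 65.9% of all features called in kar4Δ, 32.2% in ste12Δ and 59% in WT, 4 of these 8 genes were higher and 3 lower in kar4Δ, 1 and 4 in ste12Δ and 5 and 2 in WT. With library totals the counts were 2 and 3 in kar4Δ, 1 and 3 in ste12Δ and 2 and 3 in WT, and no called gene turned. The 16 other genes of phosphate transport, storage and breakdown split 6 higher and 6 lower in kar4Δ, 4 and 5 in ste12Δ and 6 and 8 in WT; with library totals the counts were 4 and 8, 3 and 5, and 5 and 8. The same shares of all features stand beside these counts, and no difference from them was tested. VTC1, VTC2 and VTC4, other polyphosphate genes of this list, fell as well. On the log2 scale VTC1 fell by 1.06, 0.58 and 0.48 in kar4Δ, ste12Δ and WT. In the same order VTC2 fell by 1.10, 0.54 and 0.84 and VTC4 by 0.90, 0.49 and 0.92. VTC5 was also on the list, and its values are not given here. PHO86, needed to export Pho84 from the endoplasmic reticulum, fell in kar4Δ (-0.94) and WT (-0.47), and -0.19 in ste12Δ did not pass (adjusted p = 0.0508). The low-affinity transporter gene PHO87 rose in all 3 (0.86, 0.34 and 0.66). Its counterpart PHO90 rose in ste12Δ (0.34) and WT (0.87), and its kar4Δ value was 0.19 (adjusted p = 0.117).

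Thiamine genes were counted as well, since PHO3 is known as thiamine-repressed. Of 13 such genes, 7 were higher and 0 lower in kar4Δ, 6 and 0 in ste12Δ and 8 and 3 in WT, beside the same 65.9%, 32.2% and 59% of all features called. With library totals the kar4Δ counts were 3 and 3, the ste12Δ counts 5 and 0 and the WT counts 7 and 4. THI4, a thiazole synthase, had 4.73, 5.39, 4.98 and 5.45 CPM in treated WT, against 1.17, 1.18, 1.25 and 1.31 CPM at 0 h, a log2 fold change of 2.07 (SE 0.24, adjusted p = 8.64e-08). THI5, THI11, THI12 and THI13 are near-identical copies and share reads, so they count as less than 4 separate genes. The thiamine transporter gene THI7 fell in WT (-0.75) and rose in kar4Δ (0.52; 0.30 and not called with library totals), a difference of 1.28 (SE 0.21, adjusted p = 9.59e-05).

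**Figure D4:**
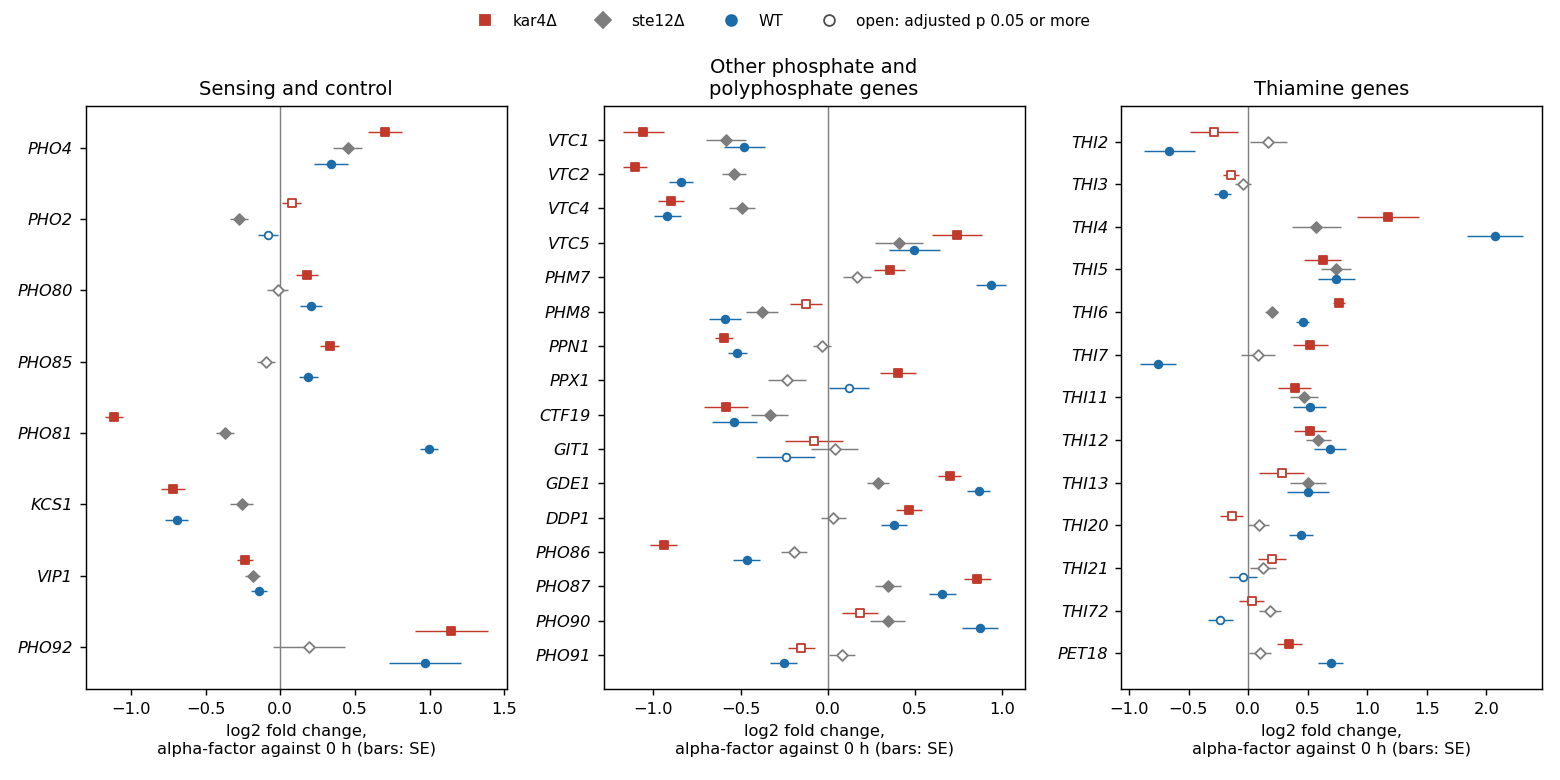
Log2 fold change after alpha-factor against 0 h for genes of phosphate sensing, other phosphate genes and thiamine genes (horizontal axis; bars: SE; red squares kar4Δ, grey diamonds ste12Δ, blue circles WT; open symbols: adjusted p 0.05 or more). PHO81 lies at -1.11 in kar4Δ, -0.37 in ste12Δ and 1.00 in WT.

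Per kilobase of coding sequence, treated and 0 h cells ranked the set differently. In treated WT the mean levels ran from PHO84 (193 CPM per kb) through PHO8 (77.5), PHO3 (60.9), PHO89 (37.4), VTC3 (36.3), PHM6 (25.6), SPL2 (24.2), PHO12 (14.02) and PHO11 (13.3) to PHO5 (12.05). Neighbours whose libraries overlapped in that order were PHO89 and VTC3, PHM6 and SPL2, PHO12 and PHO11, and PHO11 and PHO5. In WT at 0 h the order was PHO84 (617 CPM per kb), PHO3 (478), PHO5 (112), VTC3 (98.5), PHO8 (98.2), SPL2 (68.1), PHO12 (58), PHO11 (55.1), PHM6 (18.6) and PHO89 (3.67). There the libraries of neighbours were apart at 3 steps, PHO3 and PHO5, PHO11 and PHM6, and PHM6 and PHO89. PHO5 thus stood behind only PHO84 and PHO3 at 0 h and last after alpha-factor, while PHO89 stood last at 0 h and behind PHO84, PHO8 and PHO3 after alpha-factor. In treated kar4Δ, PHO3 (124 CPM per kb) ranked above PHO84 (68.5), and in treated ste12Δ PHO84 (446) remained first, apart from PHO3 (191).

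Across the 24 libraries of batches 1 and 2, centred within batch, the genes most like 3 of the members were sought among 6161 features by Pearson correlation of log2 CPM. These libraries share strains and treatment, so the values describe a common pattern and are not independent evidence. HAS1 (an RNA helicase of ribosome assembly), MYG1 and FCY2 (a purine and cytosine permease) were nearest to PHO84, with r of 0.98, 0.98 and 0.97. SSE1 and SSZ1 (chaperone genes) and CHA1 (a serine and threonine deaminase) were nearest to PHO5, with r of 0.98, 0.98 and 0.97. SCW4 (a cell wall protein), PMA1 (the plasma membrane proton pump) and TIF4631 (a scaffold of translation initiation) were nearest to PHO3, with r of 0.95, 0.95 and 0.94. Likeness in shape did not mean likeness in size: HAS1 changed by -1.34 in kar4Δ and -0.58 in WT (log2), against -3.14 and -1.67 for PHO84, whereas CHA1 changed by -2.89 and -2.39, against -3.40 and -3.24 for PHO5. Among the members themselves, PHO5 and PHO12 had r of 0.9760, a value between those of SSE1 (0.9761) and SSZ1 (0.9754) with PHO5. PHO5 and PHO11 had r of 0.97, PHO3 and PHO89 had r of -0.91, and PHO11 and PHO12, which share reads, had r of 0.998.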

How the data were processed

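Total RNA of 44 samples was sequenced after a stranded library preparation, per the labels' protocols. The authors deposited estimated counts, the expected counts of reads per feature with no normalization, for 7127 features in 44 columns; 24.5% of the values are whole numbers. STAR, featureCounts and the build sacCer3 are named in the submitters' processing notes, with no role or order, and whether counting used strand is not given in the sources used here. Symbols were matched by systematic identifier to RefSeq's R64 annotation, which named 6047 of the identifiers and left 1080 unnamed.

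The 16 columns of batch 3 formed 8 pairs whose counts differed by less than Poisson noise (chi-square per degree of freedom 0.445 to 0.703, against 5.28 to 73.1 in other pairs of 1 group and batch), and each pair was averaged. Counts were rounded and fitted with edgeR 4.0.16 in R 4.3.3 (TMM factors, filterByExpr with a minimum count of 10, quasi-likelihood test, Benjamini-Hochberg adjustment over all features tested, threshold 0.05). Batches 1 and 2 were fitted together, 24 libraries, with batch as an additive term. Batches 3 and 4 were fitted alone, and batch 4 was set against batches 1 and 2 in a fit of all 36 libraries. Differences between responses are interaction terms. The test was also run on simulated data, in which few features changed, equally up and down, and no batch effect was set. The responses measured here were far broader, so no conclusion about them is drawn from that run. Plots and summaries used Python 3.11.15.

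The members, the context lists and the marker lists were chosen with earlier results of these data known. Named with values are all members, the deleted genes, the cell-type markers and examples from the context lists. For PHO84, PHO5 and PHO3, the 3 genes outside the set with the highest correlation are named as well. Alternatives were RLE factors, library totals, no filter, DESeq2 1.42.0, no batch term, single batches, the compared groups alone, replicate blocks, other treatments of the batch 3 columns, and each library left out in turn.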

Additional observations from a re-analysis of the deposited data

Results flagged for a closer look

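In 5 of 60 groups of 4 libraries, 1 library stood apart from the other 3 by Dixon's criterion, which chance meets in about 1 group in 20. PHO5 had 25.4 CPM in treated WT replicate 1, against 13.7 to 14.7 CPM in the other treated WT libraries. PHM6 had 9.56 CPM in WT replicate 1 at 0 h, against 4.31 to 5.004 CPM in the others. PHO11 had 133 CPM in ste12Δ replicate 2 at 0 h, against 123 to 124 CPM. PHO8 had 240.2 CPM in ste12Δ replicate 1 at 0 h, against 213 to 216 CPM. SPL2 had 3.49 CPM in treated kar4Δ replicate 4, against 4.10 to 4.21 CPM. These are differences of level within a group, and none of the 5 libraries was left out of the values given above.

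The response to alpha-factor differed from that of WT in kar4Δ by 1.05 for PHO3, -0.58 for PHO11, -1.47 for PHO84, -1.50 for PHO89, -1.78 for SPL2 and -1.96 for PHM6 (differences of log2 fold change, each called by the interaction term). The PHO11 call was lost under many of the alternatives, as given with that gene above. In ste12Δ the called differences were 1.80 for PHO5, 2.53 for PHO3, 0.82 for PHO11, 0.87 for PHO12, 1.32 for PHO84, -2.95 for PHO89 and -2.30 for PHM6. PHO84 stood below WT in kar4Δ and above it in ste12Δ, while PHO3, PHO89 and PHM6 stood on the same side in both. In WT, batch 4 differed from batches 1 and 2 by -0.74 for PHO3, 1.41 for PHO89 and 0.45 for PHO8.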

How the results depend on the processing

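The 91 called member values kept their direction in all 1545 values computed for them under the alternatives. In 1491 they also kept their call, and in 54, spread over 14 values, the call was lost; those values stand beside their genes above. Uncalled member values gained a call under 35 alternatives and in 13 fits with a library left out. The count of members called moved by over 1.5 times in 3 comparisons. Between ime4Δ and WT it was 4 of 10 untreated and 4 of 10 after alpha-factor with the 16 columns kept separate, against 0 in each, and 0 to 1 untreated with a library left out. For batch 4 minus batches 1 and 2 it was 5 with library totals and 5 with the replicate block, against 3, and 2 to 5 with a library left out.

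The values that turned sign were not called in the reported fit, and the cause was not tested. For kar4Δ against WT at 0 h, PHO84 was 0.0012 with library totals, 0.11 in batch 2, 0.0068 with the groups alone and -0.13 to 0.13 with a library left out, and VTC3 was -0.087 in batch 2. For ste12Δ against WT at 0 h, PHO84 was 0.070 with library totals, 0.050 in batch 2 and -0.22 to 0.021 with a library left out, and SPL2 was -0.057 in batch 1. After alpha-factor, PHO5 in kar4Δ was -0.28 in batch 1 and -0.14 to 0.26 with a library left out. SPL2 in ste12Δ was -0.0051 with RLE factors, -0.0084 with no batch term, -0.63 in batch 1, -0.021 with the groups alone, -0.023 by DESeq2 and -0.16 to 0.25 with a library left out. In batch 2 alone this SPL2 value was 0.64 and was called (adjusted p = 0.0105), against 0.016 in the reported fit. Among response differences, PHO8 was -0.013 with library totals and -0.11 in batch 2 for kar4Δ, and -0.10 in batch 2 and -0.0047 to 0.095 with a library left out for ste12Δ. PHO5 was -0.39 to 0.023 for kar4Δ and SPL2 was -0.40 to 0.018 for ste12Δ with a library left out, and SPL2 was 0.14 in batch 2. In batch 3, PHM6 after alpha-factor was -0.094 to 0.28 and the SPL2 response difference -0.15 to 0.36 with a library left out, and the SPL2 difference was -0.0032 with library totals. PHO8 in batch 4 was -0.00047 with library totals.

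Each culture was divided between the untreated and the treated sample, but no label says that a replicate number marks a culture, and the data gave no uniform sign of it. Same-numbered libraries of 1 strain correlated in their deviations from group means at 0.15 to 0.41 in batch 1, -0.15 to 0.23 in batch 2, -0.27 and 0.42 in batch 3 and 0.24 in batch 4, so the samples were left unpaired. With the replicate block the members called were 9 in WT, 10 in kar4Δ, 8 in ste12Δ, 5 and 7 for the response differences of kar4Δ and ste12Δ, 10 in ime4Δ and 8 in WT of batch 3, and 9 in WT of batch 4; PHO11 for kar4Δ and PHM6 for WT of batch 3 lost their calls. That block has 1 term per replicate number, shared by the strains fitted together, so in batches 1 to 3 it did not pair the samples of a culture. A block for each strain and number, fitted for the responses of batches 1 and 2, changed no member's call. Crossing the numbers in ime4Δ gave 10 members for its response and 0 for the difference.

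Over all features, counts that moved by over 1.5 times were those for kar4Δ at 0 h (737, against 404 with library totals, 99 with no batch term, 152 in batch 2, and 390, 471 and 464 without kar4Δ replicate 2, WT replicate 1 or WT replicate 2 at 0 h), the ste12Δ response (1986, against 1153 with no batch term and 1257 in batch 2), ste12Δ at 0 h (1389, against 2662 with library totals, 746 with no batch term and 732 in batch 2) and the kar4Δ response difference (1167, against 751 with no batch term, 751 in batch 1 and 742 in batch 2). The ime4Δ counts were 2 untreated, 14 after alpha-factor and 1 for the difference, against 1159, 1479 and 787 with 16 separate columns. The calls for PHM6 rest on low counts, and so do the 0 h levels of PHO89 that enter its responses. These low counts limit the precision of both genes' values.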
